A study of Mus musculus with 27 samples.

Results

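The response of the liver to carbon tetrachloride (CCl4) in mice that also received 4-methylumbelliferone (4MU) was read from 7 of the 27 liver RNA libraries of the study, the 4 CCl4 + 4MU livers and the 3 4MU livers. Both groups were female Balb/c mice of 8 weeks that took 600 mg/kg 4MU daily by gavage in carboxymethyl cellulose, starting 2 days before the first injection. The CCl4 + 4MU mice received intraperitoneal CCl4 for 2 weeks and the 4MU mice olive oil, so that the comparison gives the effect of CCl4 on a background of 4MU. An effect of 4MU that is equal in both groups cancels, while any change that 4MU makes to the CCl4 response remains in it. For reference, the same CCl4 contrast was taken in 3 other arms, which share no mouse with the 4MU arm: untreated (2 CCl4 and 4 control mice, the latter with olive oil and phosphate-buffered saline), siLuc-LNP (4 and 3 mice) and siHAS2-LNP (4 and 3 mice), where lipid nanoparticles (LNP) given by tail vein carried an siRNA against luciferase or against the hyaluronan synthase Has2. The genes tested were those averaging 10 counts or more over all libraries, 14114 of the 55414 counted. Each library is whole liver, in which fewer cells of a type and less RNA per cell cannot be told apart.

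CCl4 is turned into a reactive radical by Cyp2e1, a cytochrome P450 of the hepatocytes around the central vein, and these pericentral cells die. In the days that follow, surviving hepatocytes divide, macrophages clear the debris, and stellate cells turn into myofibroblasts that lay down collagen. Hyaluronan, a sugar polymer of the matrix, is made by the Has enzymes from UDP-glucuronic acid and bound by the receptor Cd44. 4MU is glucuronidated by UDP-glucuronosyltransferases (UGT), which consumes the same precursor, and is used to lower hyaluronan synthesis.

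The 4MU libraries held 19584208, 25902878 and 20775142 counts and the CCl4 + 4MU libraries 23214630, 22108328, 26574405 and 29425937. Levels are given as CPM, counts divided by the TMM-adjusted library total and scaled alike in all libraries, in the order of the mouse numbers. Hepatocyte markers (Alb, Ttr, Apoa1, Hnf4a) summed to 118200 to 147100 CPM in the 4MU livers and 140600 to 167900 CPM in the CCl4 + 4MU livers. The libraries of the 4MU arm correlated with their own group at Spearman's rho of 0.979 to 0.985 in 4MU and 0.987 to 0.991 among CCl4 + 4MU mice 1 to 3, across genes, which are not independent replicates. CCl4 + 4MU mouse 4 stood apart, at 0.971 to 0.977 with the other 3, and 187 of its genes lay over 2-fold above every other liver of the arm, against 3 to 49 in the other 6. These included the epithelial genes Dmbt1 (2350 CPM, at most 0.861 elsewhere), Muc17 (42.3 CPM, 0 elsewhere), Mmp7 (43.9 CPM) and Krt19 (92.6 CPM, 0.645 to 2.51 elsewhere). The duct markers Krt19, Krt7, Epcam and Sox9 together summed to 5.81 to 11 CPM in the other 6 livers and 121.6 CPM in mouse 4. Of the smooth muscle genes Cnn1 had 147 counts there, against 1 to 11 elsewhere. The part of these transcripts in the results was not tested, and results that rest on mouse 4 are given with and without it.

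In the presence of 4MU, CCl4 changed 3350 of the 14114 genes (23.7%) at an adjusted p under 0.05 in edgeR's quasi-likelihood test, 1864 higher (13.2%) and 1486 lower (10.5%). Before adjustment 5077 had a p under 0.05. The 4 CCl4 + 4MU livers lay wholly above or wholly below the 3 4MU livers for 5085 genes (36.0%), of which 3077 were also called. Large changes were mostly rises: 511 called genes rose by over 2 on the log2 scale and 95 fell by over 2. Leaving out 4MU mouse 3 brought the calls to 2138, and leaving out CCl4 + 4MU mouse 4 brought them to 2496, of which 2408 were among the 3350. When a change of 1 or more on the log2 scale was also required, 1638 genes were called, 74.4% of them higher against 55.6% without that condition. Numbers of mice were small. The p-values weigh the difference between the groups against the spread of mice within a group, estimated from all 27 libraries.

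Among genes called with no overlap between the groups, the 10 with the largest rises held 6 that work in cell division. Cdh17, a cadherin of intestine and fetal liver, had 0 counts in the 3 4MU livers and 3.96, 5.59, 7.13 and 0.961 CPM in the CCl4 + 4MU livers, at least 31.3-fold higher against a limit of 3 counts per library (adjusted p = 9.88e-05). Kntc1, a kinetochore protein, had 0 counts in the 4MU livers and was at least 21.8-fold higher. The corresponding bounds were 18.8 for the trypsin inhibitor Spink1, 14.9 for the protease Mep1a, 10.1 for Oip5, which helps to mark centromeres, and 9.37 for the mitotic kinesin Kif14. All 6 were at 0 in every 4MU liver and above 0 in every CCl4 + 4MU liver. Where the 4MU livers held 1 to 3 counts each or fewer, the ratio of the summed counts was 426 (95% interval 76.2 to 16900) for the spindle protein Ckap2l, 389 (95% interval 69.5 to 15400) for Iqgap3 and 268 (95% interval 123 to 732) for Cdc20, the activator of the anaphase-promoting complex. Intervals and limits on counts cover counting error only. Gpnmb, a lysosomal glycoprotein of lipid-laden macrophages, completed the 10 and had 0.0512, 1.21 and 0.152 CPM in the 4MU livers and 94.1, 147, 176 and 91.8 CPM in the CCl4 + 4MU livers, a log2 change of 7.92 (standard error 0.75, adjusted p = 4.81e-08). The limit on overlap left out Dmbt1, whose log2 change of 13.08 rests on CCl4 + 4MU mouse 4. For Gpnmb the log2 change was 10.21 without 4MU mouse 2.

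Among such genes the 10 deepest falls held 4 cytochromes P450, 2 sulfotransferases and 3 genes of the major urinary protein family. Slc1a2, a glutamate transporter of pericentral cells (chromosome 2, 102488574 to 102621129 on GRCm39), had 119, 102 and 107 CPM in the 4MU livers and 0.344, 0.0499, 0.259 and 0.712 CPM in the CCl4 + 4MU livers. Every 4MU liver was above 100 CPM and every CCl4 + 4MU liver under 1 CPM, a log2 change of -8.23 (standard error 0.35, adjusted p = 3.5e-14). The sulfotransferase Sult3a1 had 6.56, 39.2 and 14.6 CPM in the 4MU livers and 0.043, 0.15, 0.148 and 0 CPM in the CCl4 + 4MU livers, a change of -7.85 (standard error 0.87, adjusted p = 4.63e-07). Sult2a3, another sulfotransferase, fell by 5.06. The cytochromes P450 Cyp3a41a, Cyp3a41b, Cyp3a16 and Cyp2c69 changed by -8.74, -8.20, -8.05 and -5.76. They and the major urinary protein genes have near-identical copies, and reads that mapped to more than 1 place were left out of the counts, so the value of a single member is uncertain. Mup18 had a ratio of summed counts of 0.00237 (95% interval 0.000488 to 0.00696) and the pseudogene Mup-ps13 one of 0.0181 (95% interval 0.00485 to 0.0472). Mup9 had 8.2, 79.4 and 8.05 CPM in the 4MU livers and 0.731, 0.349, 1.74 and 0.427 CPM in the CCl4 + 4MU livers, with 4MU mouse 2 far above its companions, and changed by -5.26 (adjusted p = 0.00341). This passed in 15 of 16 alternatives (adjusted p up to 0.0666) and not without 4MU mouse 2. Alternatives here are other tools, scalings and filters, a replicate block, a fit of the compared groups alone and fits that leave out 1 mouse, and a value that passed had an adjusted p under the threshold. The plot of calls per list shows how the changes fell across 37 lists of liver genes, with 10 to 54 tested members each. Lists with a smaller share called than the 23.7% of all genes included periportal (8.33%) and clock genes (11.1%). Lymphocyte and dendritic cell markers (13.6%), hepatocyte transcription factors (14.3%) and sinusoidal genes (14.8%) were others. For Sult3a1, Cyp2c69 and Mup9 the log2 changes were -6.92, -4.94 and -3.28 without 4MU mouse 2. For Cyp3a41a, Cyp3a41b and Mup9 the log2 changes were -10.08, -10.48 and -5.97 without CCl4 + 4MU mouse 3. For Slc1a2 the log2 change was -8.88 without CCl4 + 4MU mouse 4.

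**Figure D1:**
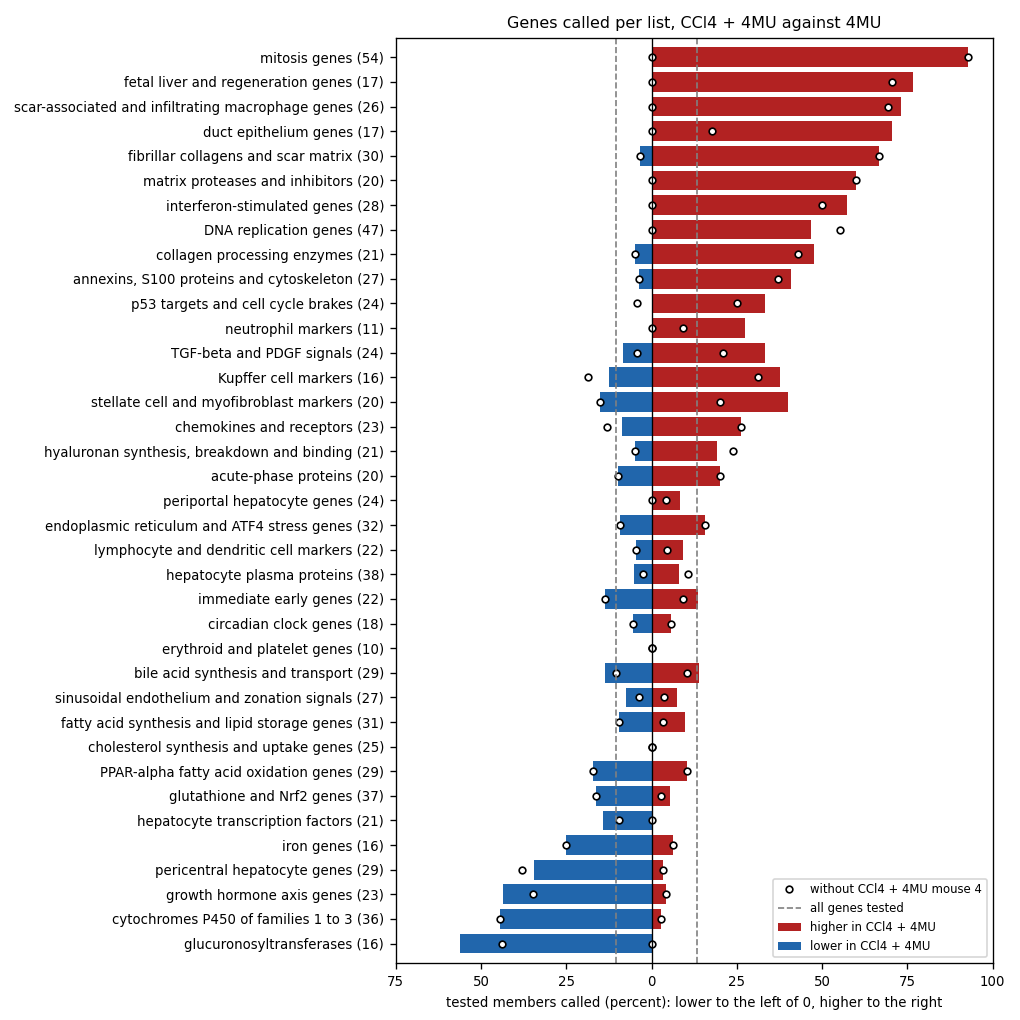
Bars give the percentage of each list's tested members (number in brackets) that were called higher (red, right) or lower (blue, left) in CCl4 + 4MU than in 4MU livers, open circles both percentages without CCl4 + 4MU mouse 4, and dashed lines the 13.2% higher and 10.5% lower of all genes tested. Mitosis genes reach furthest to the right, with 50 of 54, and the duct list falls from 12 of 17 to 3 of 17 without mouse 4.

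Nearly the whole mitotic programme rose. Of 54 mitosis genes, 50 rose and 0 fell (edgeR; 52 had an unadjusted p under 0.05, and DESeq2 called 50 and limma-voom 53). Here and below limma-voom was run with sample quality weights, which give less weight to more variable libraries. The median log2 fold change was 4.65. It was 4.57 with 1 gene at 0 set to its bound and 12 genes at 1 to 3 counts to their ratio of summed counts. The count was 50 without mouse 4 and 48 to 53 over the alternatives, and in 49 genes every CCl4 + 4MU liver lay above every 4MU liver. Mki67, the antigen of cycling cells (chromosome 7, 135291513 to 135318299), had 0.922, 1.87 and 0.912 CPM in the 4MU livers and 36.8, 44.3, 82.7 and 15.4 CPM in the CCl4 + 4MU livers. The groups did not overlap, mouse 3 was highest and mouse 4 lowest, and the log2 change was 5.14 (standard error 0.53, adjusted p = 1.62e-07). Cdk1, the kinase that drives entry into mitosis, had 0.205, 1.05 and 0.506 CPM in the 4MU livers and 10.7, 11.7, 26.3 and 7.97 CPM in the CCl4 + 4MU livers, a change of 4.51 (standard error 0.55, adjusted p = 2.31e-06). Top2a, which untangles sister chromatids, had 0.102, 1.09 and 0.658 CPM in the 4MU livers and 16.7, 15.7, 34.6 and 8.33 CPM in the CCl4 + 4MU livers, a change of 4.85 (standard error 0.66, adjusted p = 8.82e-06). Cyclin B1, Ccnb1, had 0 to 2 counts in the 4MU livers and 10.9, 12.9, 23.8 and 5.73 CPM after CCl4, a ratio of summed counts of 217 (95% interval 84.5 to 797). Mouse 3 was the highest of the 4 in each of these genes and mouse 4 the lowest, and over the whole list the mean log2(CPM + 1) rose above the 4MU mean by 2.18, 2.25, 2.94 and 1.38 in mice 1 to 4. For Cdk1 and Top2a the log2 changes were 5.29 and 5.60 without 4MU mouse 2.

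The DNA replication list rose in part. Of 47 genes, 22 rose and 0 fell (29 at an unadjusted p under 0.05, 25 with DESeq2, 28 with limma-voom), with a median of 1.03. Over the alternatives 16 to 28 rose. Mcm6, a subunit of the replicative helicase, had 0.307, 0.469 and 0.658 CPM in the 4MU livers and 17, 13.6, 30 and 8.4 CPM in the CCl4 + 4MU livers, a change of 5.16 (standard error 0.65, adjusted p = 3.04e-06). Mcm2, of the same helicase, had 2.56, 3.12 and 2.94 CPM in the 4MU livers and 11.7, 8.83, 17.2 and 10.5 CPM in the CCl4 + 4MU livers and changed by 2.06 (standard error 0.39, adjusted p = 0.000452). Rrm2, the ribonucleotide reductase subunit made in S phase, rose by 3.12 (standard error 0.61, adjusted p = 0.000616). Uhrf1, which maintains DNA methylation at the fork, had 1 to 3 counts in the 4MU livers and 7.4, 4.39, 14 and 2.81 CPM after CCl4, a ratio of 78.7 (95% interval 36 to 215). The sliding clamp Pcna, by contrast, had 23.6, 23.9 and 28.4 CPM in the 4MU livers and 29.9, 30.9, 51.3 and 28.4 CPM in the CCl4 + 4MU livers. The lowest CCl4 + 4MU liver lay at the highest 4MU liver, mouse 3 stood above the rest, and the change was 0.47 (standard error 0.27, adjusted p = 0.214). Rpa2, of the single-strand binding complex, had 6.87, 9.69 and 7.55 CPM in the 4MU livers and 9.12, 8.98, 12.4 and 8.19 CPM in the CCl4 + 4MU livers, overlapping groups, and changed by 0.26 (standard error 0.22, adjusted p = 0.405). For Rrm2 the log2 change was 2.44 without CCl4 + 4MU mouse 3.

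The start regions of both lists were read from the genome, since mitosis and replication genes are known to be driven through different promoter elements. Windows of 280 bases, from 250 before to 30 after the annotated start of the canonical transcript on GRCm39, were taken for 14080 of the tested genes. The CHR element (TTTGAA or TTCGAA, either strand), bound by the complex that times late cell cycle genes, was in 23 of 54 mitosis windows (42.6%), 5 of 47 replication windows (10.6%) and 15.8% of all windows. CCAAT, the NF-Y motif, on either strand, was in 63% of mitosis, 46.8% of replication and 38% of all windows, and both together in 33.3%, 6.38% and 6.28%. An E2F motif (TTT, then any 2 letters that are C or G, then CGC, on either strand) was in 5.56% of mitosis, 23.4% of replication and 3.27% of all windows. Matches of different motifs can share letters at their ends, and neighbouring E2F matches can overlap. A match is a description of the letters, not a site in use. The windows of Cdk1, Top2a and Mcm6 are shown as examples and do not stand for the other genes named in the paragraphs on these lists. Of those, Mki67 and Ccnb1 held no CHR match. Mcm2 and Rrm2 held 1 CHR match each and no E2F match, and Pcna, Uhrf1 and Rpa2 held neither. Capitals mark the matches of any of the 3 motifs, 5′ to 3′ on the strand of the gene. They lie at chr10:69188739-69189018, chr11:98915012-98915291 and chr1:128287423-128287702 on GRCm39, all on the minus strand.
Cdk1: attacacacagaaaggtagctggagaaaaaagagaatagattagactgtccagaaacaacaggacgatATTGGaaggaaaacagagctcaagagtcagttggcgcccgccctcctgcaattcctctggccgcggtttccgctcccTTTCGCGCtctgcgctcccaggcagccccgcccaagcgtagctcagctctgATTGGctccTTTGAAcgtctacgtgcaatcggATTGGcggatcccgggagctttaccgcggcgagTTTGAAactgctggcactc
Top2a: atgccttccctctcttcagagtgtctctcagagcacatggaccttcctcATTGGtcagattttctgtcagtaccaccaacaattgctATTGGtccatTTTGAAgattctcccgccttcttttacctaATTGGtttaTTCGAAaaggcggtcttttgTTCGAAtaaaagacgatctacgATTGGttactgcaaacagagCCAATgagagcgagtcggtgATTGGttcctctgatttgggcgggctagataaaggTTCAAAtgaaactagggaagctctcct
Mcm6: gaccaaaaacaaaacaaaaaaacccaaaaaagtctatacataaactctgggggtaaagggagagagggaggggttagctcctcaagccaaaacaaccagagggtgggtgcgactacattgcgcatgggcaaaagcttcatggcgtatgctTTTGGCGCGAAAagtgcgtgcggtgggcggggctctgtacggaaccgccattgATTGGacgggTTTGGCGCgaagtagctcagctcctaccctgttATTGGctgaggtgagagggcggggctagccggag
Cdk1 holds CHR letters 45 bases before the start and again 12 bases after it, with CCAAT letters at 182, 54 and 22 bases before it. Top2a holds 4 CHR and 6 CCAAT matches. Mcm6 holds no CHR match and 3 of the E2F motif, 2 of which overlap.

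Of 24 targets of p53 and other brakes on the cycle, 8 rose and 0 fell, 33.3% against 23.7% of all genes tested (13.2% higher). At an unadjusted p under 0.05 there were 10, and DESeq2 called 9 and limma-voom 8. Without CCl4 + 4MU mouse 3 there were 5 rises. Phlda3, a p53 target that restrains Akt, had 0.769, 1.21 and 0.658 CPM in the 4MU livers and 12.9, 14.8, 16.7 and 16.1 CPM in the CCl4 + 4MU livers. Its groups lay far apart with little spread within CCl4 + 4MU, and the change was 4.07 (standard error 0.29, adjusted p = 9.05e-10). The CDK inhibitor Cdkn1a had 2.61, 28 and 12.8 CPM in the 4MU livers and 14.9, 41, 37.1 and 17.5 CPM in the CCl4 + 4MU livers, with overlapping groups and a change of 0.92 (standard error 0.53, adjusted p = 0.217). Mdm2, which degrades p53, changed by 0.30 (adjusted p = 0.226) and the cyclin Ccng1 by 0.17 (adjusted p = 0.543).

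**Figure D2:**
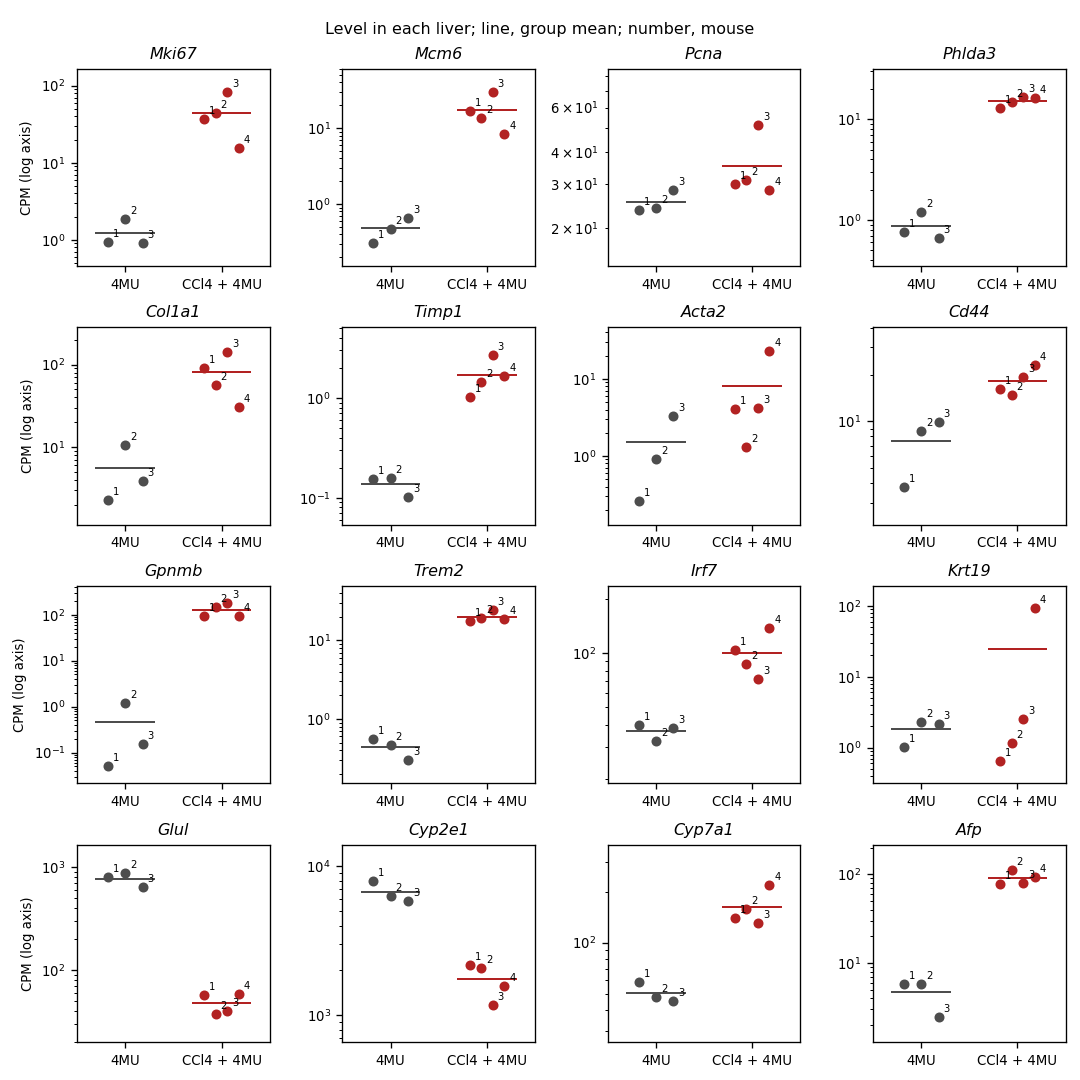
Each panel shows the CPM of 1 gene on a log axis in the 3 4MU livers (grey) and the 4 CCl4 + 4MU livers (red), with the mouse number beside each point and a line at the group mean. Mki67, Mcm6, Phlda3, Col1a1, Gpnmb, Trem2 and Afp separate the groups upwards and Glul and Cyp2e1 downwards, Pcna touches, and in Krt19 mouse 4 lies far above the rest.

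Genes of the scar matrix rose together. Of 30, 20 rose and 1, Efemp1, fell, with a median of 1.42, and 20 rose without mouse 4. Col1a1, the main chain of type I collagen (chromosome 11, 94827050 to 94843868), had 2.25, 10.7 and 3.85 CPM in the 4MU livers and 91, 56.3, 143 and 30.4 CPM in the CCl4 + 4MU livers. The lowest CCl4 + 4MU liver, mouse 4, stood above the highest 4MU liver, and the change was 3.82 (standard error 0.57, adjusted p = 3.14e-05). Col1a2, its partner chain, had 6.46, 18.6 and 9.67 CPM in the 4MU livers and 104, 63.1, 157 and 36.8 CPM in the CCl4 + 4MU livers and Col3a1, of type III collagen, 10.6, 35.1 and 18.9 CPM in the 4MU livers and 177, 125, 227 and 54.9 CPM in the CCl4 + 4MU livers. Their changes were 2.96 (standard error 0.48, adjusted p = 8.89e-05) and 2.76 (standard error 0.47, adjusted p = 0.00013), and mouse 3 was highest and mouse 4 lowest in all 3 collagens. Lum, a proteoglycan that spaces collagen fibrils, rose by 1.30 (standard error 0.29, adjusted p = 0.00181). Collagens IV, V, VI and XII, fibrillin (Fbn1), elastin (Eln) and tenascin C (Tnc) were among the other members that rose, by 1.26 to 2.45. For Col1a1 the log2 change was 4.71 without 4MU mouse 2.

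Of 21 collagen processing enzymes, 10 rose and 1 fell. The crosslinkers Loxl1 and Loxl2 rose by 2.17 (standard error 0.46, adjusted p = 0.00124) and 1.71 (standard error 0.39, adjusted p = 0.0023). Lox had 0, 0.43 and 0.203 CPM in the 4MU livers and 1.33, 1.3, 3.1 and 0.391 CPM in the CCl4 + 4MU livers, with 1 CCl4 + 4MU liver inside the 4MU range, and rose by 2.74 (adjusted p = 0.0183). This passed in 13 of 16 alternatives (adjusted p up to 0.0791) and not without 4MU mouse 1 or 3 or CCl4 + 4MU mouse 3. The collagen chaperones Serpinh1 and Fkbp10 rose by 1.49 (adjusted p = 0.000981) and 1.69 (adjusted p = 0.00407). The prolyl hydroxylase subunit P4ha2 fell, with 6.2, 4.18 and 4.41 CPM in the 4MU livers and 2.15, 2.69, 3.1 and 3.35 CPM in the CCl4 + 4MU livers and a change of -0.80 (standard error 0.25, adjusted p = 0.0217). This passed in 14 of 16 alternatives (adjusted p up to 0.127) and not without 4MU mouse 1 or CCl4 + 4MU mouse 1. Among 20 matrix proteases and their inhibitors 12 rose and 0 fell (14 at an unadjusted p under 0.05, 13 with DESeq2, 12 with limma-voom), and 12 without mouse 4. Mmp12, the macrophage elastase, had 0.359, 0.625 and 0.557 CPM in the 4MU livers and 31.6, 46.7, 66.9 and 21.6 CPM in the CCl4 + 4MU livers, a change of 6.31 (standard error 0.92, adjusted p = 2.23e-05). The collagenase Mmp13 rose from 0 to 5 counts to 3.1, 2.84, 2.22 and 1.92 CPM, by 4.44 (standard error 0.75, adjusted p = 0.000137). Timp1, the inhibitor of these proteases, had 0.154, 0.156 and 0.101 CPM in the 4MU livers and 1.03, 1.45, 2.7 and 1.67 CPM in the CCl4 + 4MU livers and rose by 3.58 (standard error 0.44, adjusted p = 2.6e-06). Mmp2, the gelatinase of stellate cells, rose by 2.01 (standard error 0.35, adjusted p = 0.00018). For Fkbp10, Lox, Loxl1 and Mmp13 the log2 changes were 2.3, 3.84, 2.84 and 3.78 without 4MU mouse 2. For Mmp13 the log2 change was 5.63 without 4MU mouse 3. For Lox the log2 change was 2.11 without CCl4 + 4MU mouse 3.

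Stellate cell and myofibroblast markers moved less uniformly. Of 20, 8 rose and 3 fell, and without mouse 4 there were 4 and 3. Acta2, the smooth muscle actin of myofibroblasts, had 0.256, 0.898 and 3.34 CPM in the 4MU livers and 4.09, 1.3, 4.18 and 23.2 CPM in the CCl4 + 4MU livers. The groups overlapped and mouse 4 was far above the rest, and the change of 2.47 (standard error 0.88, adjusted p = 0.0423) became 1.11 (adjusted p = 0.353) without mouse 4. It passed in 9 of 16 alternatives (adjusted p up to 0.353), not with limma-voom, library totals, the replicate block or the compared groups alone, nor without 4MU mouse 1 or 2 or CCl4 + 4MU mouse 4. The rises numbered 4 without 4MU mouse 1 and 5 without 4MU mouse 2 or 3, the latter with 1 fall each. Vim, vimentin, had 12.2, 21.9 and 12 CPM in the 4MU livers and 55.1, 51, 77.5 and 66.2 CPM in the CCl4 + 4MU livers, with no overlap, and rose by 2.02 (standard error 0.24, adjusted p = 1.39e-06). Pdgfrb, the PDGF receptor of stellate cells, rose by 0.60 (standard error 0.22, adjusted p = 0.0462). This passed in 9 of 16 alternatives (adjusted p up to 0.172), not with library totals or edgeR's own filter, nor without 4MU mouse 1, 2 or 3 or CCl4 + 4MU mouse 1 or 3. Desmin, Des, had 3.69, 6.6 and 5.52 CPM in the 4MU livers and 4.86, 5.39, 6.17 and 14.1 CPM in the CCl4 + 4MU livers, a change of 0.53 (adjusted p = 0.221). Ngfr, the low-affinity nerve growth factor receptor of activated stellate cells, fell by 1.27 (adjusted p = 0.00603). Of 24 TGF-beta and PDGF signals 8 rose and 2 fell, 41.7% against 23.7% of all genes tested. Among them 5 rose without mouse 4 or without 4MU mouse 3. Tgfb1 had 4.87, 6.91 and 7.34 CPM in the 4MU livers and 11.9, 10.6, 11.8 and 11.9 CPM in the CCl4 + 4MU livers and rose by 0.86 (standard error 0.19, adjusted p = 0.00201). Pdgfb rose by 1.06 (adjusted p = 0.0192). This passed in 12 of 16 alternatives (adjusted p up to 0.0825) and not without 4MU mouse 1 or 3 or CCl4 + 4MU mouse 3 or 4. Bmp7 rose by 2.37 (standard error 0.48, adjusted p = 0.000864), while Inhba, the activin A chain, fell from 37.3, 56.6 and 38.5 to 21.6, 18.6, 23.7 and 14.6 CPM, at -1.17 (standard error 0.37, adjusted p = 0.0226). This passed in 14 of 16 alternatives (adjusted p up to 0.111) and not without 4MU mouse 2 or CCl4 + 4MU mouse 4. For Acta2 the log2 change was 3.77 without 4MU mouse 3.

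For hyaluronan, the synthase Has2 had 0 counts in all 7 livers, so that no change was detectable at this depth. Has1 had 1, 2 and 17 counts in 4MU and 0, 1, 1 and 3 counts in CCl4 + 4MU livers, and Has3 had 10, 6 and 3 and 4, 5, 12 and 8 counts. None of the 3 passed the filter. Of 21 tested genes of hyaluronan synthesis, breakdown and binding, 4 rose and 1 fell, 23.8% of the list, close to the 23.7% of all genes. The largest rise was in Hmmr, a hyaluronan-binding protein that also works at the mitotic spindle, from 1 to 3 counts to 10.4, 10.9, 20.4 and 3.42 CPM, a ratio of 122 (95% interval 55.7 to 332). Cd44 had 3.79, 8.67 and 9.93 CPM in the 4MU livers and 16.1, 14.8, 19.3 and 23 CPM in the CCl4 + 4MU livers, no overlap, and rose by 1.29 (standard error 0.27, adjusted p = 0.000986). Hapln1, which links hyaluronan to proteoglycans, and Itih5, which modifies it, rose by 4.96 and 2.64. The clearance receptors Stab2 and Lyve1 changed by -0.30 (adjusted p = 0.24) and 0.74 (adjusted p = 0.258). Ugp2, which makes the UDP-glucose from which UDP-glucuronic acid is formed, had 524, 409 and 771 CPM in the 4MU livers and 356, 267, 294 and 208 CPM in the CCl4 + 4MU livers and fell, at -1.01 (standard error 0.21, adjusted p = 0.00124).

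Of 16 glucuronosyltransferases, the enzyme family that conjugates 4MU, 0 rose and 9 fell (edgeR; 11 had an unadjusted p under 0.05, and DESeq2 called 10 and limma-voom 8), with a median of -0.64. Without 4MU mouse 3, 5 fell. Ugt2b1 had 268, 319 and 359 CPM in the 4MU livers and 167, 156, 167 and 108 CPM in the CCl4 + 4MU livers, with no overlap, and changed by -1.08 (standard error 0.22, adjusted p = 0.000861). Ugt3a2 had 42.8, 47.9 and 25.7 CPM in the 4MU livers and 14, 9.92, 7.91 and 3.91 CPM in the CCl4 + 4MU livers and changed by -2.12 (standard error 0.45, adjusted p = 0.00132). The bilirubin enzyme Ugt1a1 had 119.9, 77.9 and 89.4 CPM in the 4MU livers and 93.2, 78.9, 48.6 and 56.4 CPM in the CCl4 + 4MU livers, overlapping groups and a change of -0.47 (adjusted p = 0.391), and Ugt1a6a one of -0.67 (adjusted p = 0.136). The Ugt1a genes share exons and the Ugt2b genes are close paralogs, so that single members are uncertain.

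Macrophage genes of the injured liver rose. Of 26 genes of scar-associated and infiltrating macrophages, 19 rose and 0 fell (21 at an unadjusted p under 0.05, 19 with DESeq2, 20 with limma-voom), with a median of 1.83, and 18 rose without mouse 4. Trem2, a lipid receptor of these cells, had 0.564, 0.469 and 0.304 CPM in the 4MU livers and 17.5, 19, 24.6 and 18.8 CPM in the CCl4 + 4MU livers. The 4 CCl4 + 4MU livers lay close together, far above all 4MU livers, and the change was 5.46 (standard error 0.41, adjusted p = 1.99e-09). Cd68, a lysosomal protein of macrophages, had 5.12, 7.97 and 4.41 CPM in the 4MU livers and 26.5, 21.7, 26.9 and 27 CPM in the CCl4 + 4MU livers and rose by 2.12 (standard error 0.36, adjusted p = 0.000143). Ccr2, the chemokine receptor of incoming monocytes, had 0.82, 2.89 and 1.92 CPM in the 4MU livers and 7.83, 6.48, 9.35 and 4.06 CPM in the CCl4 + 4MU livers and rose by 1.86 (standard error 0.40, adjusted p = 0.00163). Itgax, Ctsk, Lgals3 and Cd63 rose by 4.52, 3.86, 3.29 and 2.93.

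Among 16 markers of Kupffer cells, the resident macrophages, 6 rose and 2 fell. Timd4, which marks long-lived Kupffer cells, had 5.74, 12.3 and 7.09 CPM in the 4MU livers and 7.49, 2.69, 3.51 and 5.73 CPM in the CCl4 + 4MU livers, overlapping groups, and fell by 0.79 (adjusted p = 0.0434). This passed in 8 of 16 alternatives (adjusted p up to 0.388), not with library totals, the replicate block or the compared groups alone, nor without 4MU mouse 2 or 3 or CCl4 + 4MU mouse 2 or 3 or CCl4 + siHAS2-LNP mouse 4. Slc40a1, the iron exporter, had 177, 245 and 223 CPM in the 4MU livers and 157, 122, 116 and 103 CPM in the CCl4 + 4MU livers and changed by -0.79 (standard error 0.18, adjusted p = 0.00297). The scavenger receptor Marco rose by 2.3 (standard error 0.53, adjusted p = 0.00279), with mouse 4 highest at 33.5 CPM. Adgre1, the F4/80 antigen, rose by 1.09 (adjusted p = 0.0286). This passed in 11 of 16 alternatives (adjusted p up to 0.139), not with library totals, nor without 4MU mouse 1 or 3 or CCl4 + 4MU mouse 1 or 3. C1qc, a chain of complement C1q, had 25.5, 46.3 and 38.9 CPM in the 4MU livers and 79.2, 57.9, 67.9 and 121 CPM in the CCl4 + 4MU livers and rose by 1.14 (standard error 0.23, adjusted p = 0.000864). Csf1r, the receptor for the macrophage growth factor, rose by 0.99 (standard error 0.24, adjusted p = 0.00398). Lymphocyte and dendritic cell markers gave 2 rises and 1 fall among 22, and 6 rises without 4MU mouse 2 and 4 without CCl4 + 4MU mouse 2. Neutrophil markers gave 3 rises and 0 falls among 11, 27.3% against 23.7% of all genes tested (6 at an unadjusted p under 0.05, 5 with DESeq2, 9 with limma-voom). Of these S100a9 had 3.54, 3.36 and 13.4 CPM in the 4MU livers and 19.5, 9.72, 18.2 and 26.6 CPM in the CCl4 + 4MU livers, where 4MU mouse 3 overlapped CCl4 + 4MU mouse 2, a change of 1.46 (adjusted p = 0.0498). This passed in 7 of 16 alternatives (adjusted p up to 0.203), not with DESeq2's size factors, library totals, the replicate block or the compared groups alone, nor without 4MU mouse 1 or 2 or CCl4 + 4MU mouse 1, 3 or 4. The neutrophil count fell to 1 without CCl4 + 4MU mouse 1 or 4, to 0 without CCl4 + 4MU mouse 3 or 4MU mouse 1 or 2, and rose to 6 without 4MU mouse 3. Summed over all members found, Kupffer cell markers held 505.4 to 972 CPM in 4MU and 596.4 to 1015 CPM in CCl4 + 4MU livers, lymphocyte and dendritic cell markers 230.1 to 464.2 and 419.3 to 906.8 CPM, and neutrophil markers 12.07 to 46.34 and 34.66 to 69.18 CPM, and the part of cell numbers in these results was not tested. For Adgre1 the log2 change was 1.74 without 4MU mouse 2. For S100a9 the log2 change was 2.43 without 4MU mouse 3.

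Of 23 chemokines and receptors 6 rose and 2 fell, 34.8% against 23.7% of all genes tested. Cxcl14 had 0.359, 0.976 and 0.0506 CPM in the 4MU livers and 5.21, 3.79, 7.58 and 5.69 CPM in the CCl4 + 4MU livers and rose by 3.51 (standard error 0.61, adjusted p = 0.000175). Ccl25 fell from 3.13, 2.97 and 4.61 to 1.72, 2.34, 1.48 and 1.85 CPM, at -0.95 (adjusted p = 0.00503). This passed in 15 of 16 alternatives (adjusted p up to 0.0592) and not without 4MU mouse 3. Ccl2, the ligand of Ccr2, had 0.256, 0.937 and 2.13 CPM in the 4MU livers and 0.602, 0.349, 0.739 and 1.25 CPM in the CCl4 + 4MU livers. Its groups overlapped, and the change of -0.56 (adjusted p = 0.51) turned positive without 4MU mouse 3. Interferon-stimulated genes, which defend against viruses, moved in 1 direction: 16 of 28 rose and 0 fell (21 at an unadjusted p under 0.05, 17 with DESeq2, 18 with limma-voom), with a median of 0.99, and 14 rose without mouse 4. Irf7, the factor that amplifies the interferon response, had 39.7, 32.4 and 38.2 CPM in the 4MU livers and 104.5, 87.6, 71.5 and 138 CPM in the CCl4 + 4MU livers, no overlap, and rose by 1.45 (standard error 0.26, adjusted p = 0.000284). Isg15, a ubiquitin-like protein, had 17.9, 19.1 and 17.7 CPM in the 4MU livers and 43.2, 36.3, 39.3 and 59.6 CPM in the CCl4 + 4MU livers and rose by 1.29 (standard error 0.30, adjusted p = 0.00267). Oas3, a sensor of double-stranded RNA, rose by 2.26 (standard error 0.46, adjusted p = 0.000945). Ifit1 rose by 1.07 (adjusted p = 0.0292). This passed in 10 of 16 alternatives (adjusted p up to 0.0929), not with library totals, nor without 4MU mouse 1, 2 or 3 or CCl4 + 4MU mouse 1 or 4. For Cxcl14 the log2 change was 4.74 without 4MU mouse 2.

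The pericentral programme fell in part. Of 29 pericentral hepatocyte genes, 10 fell and 1 rose, with a median of -0.57. Glul, glutamine synthetase of the cells around the central vein, had 800.3, 884 and 637 CPM in the 4MU livers and 57.4, 37.5, 40.4 and 58 CPM in the CCl4 + 4MU livers. Every CCl4 + 4MU liver was under 60 CPM and every 4MU liver over 600 CPM, and the change was -4.00 (standard error 0.23, adjusted p = 1.03e-11). Cyp2e1 had 7934, 6317 and 5809 CPM in the 4MU livers and 2177, 2064, 1166 and 1582 CPM in the CCl4 + 4MU livers. Its groups did not overlap and the change was -1.94 (standard error 0.35, adjusted p = 0.000306). Cyp1a2, another pericentral cytochrome P450, had 956, 642 and 735 CPM in the 4MU livers and 485, 375, 632 and 516 CPM in the CCl4 + 4MU livers. It was lower in all 4 CCl4 + 4MU livers than in any 4MU liver, and the change of -0.63 (standard error 0.36, adjusted p = 0.219) did not pass. Ahr, the aryl hydrocarbon receptor, was the member that rose, with 25.7, 24.2 and 29.9 CPM in the 4MU livers and 40.6, 46, 38.4 and 31.2 CPM in the CCl4 + 4MU livers and a change of 0.55 (standard error 0.17, adjusted p = 0.0191). This passed in 13 of 16 alternatives (adjusted p up to 0.0852) and not without 4MU mouse 1 or 2 or CCl4 + 4MU mouse 2. Periportal genes gave 2 rises and 0 falls among 24 (edgeR; 4 at an unadjusted p under 0.05, 3 with DESeq2, 6 with limma-voom). Aldh1b1, a mitochondrial aldehyde dehydrogenase, had 139, 113 and 126 CPM in the 4MU livers and 356, 426, 400.2 and 355 CPM in the CCl4 + 4MU livers and rose by 1.61 (standard error 0.24, adjusted p = 3.64e-05). The urea cycle genes Cps1 and Ass1 had changes of 0.66 (adjusted p = 0.0785) and 0.66 (adjusted p = 0.0944).

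Of 36 cytochromes P450 of families 1 to 3, 16 fell and 1 rose, and 16 fell without mouse 4. The riser, Cyp2c55, had 2.05, 1.76 and 4.1 CPM in the 4MU livers and 12.7, 9.97, 18 and 28.3 CPM in the CCl4 + 4MU livers, with mouse 4 highest, and a change of 2.72 (standard error 0.55, adjusted p = 0.000902). Glutathione and Nrf2 genes gave 2 rises and 6 falls among 37, 21.6% against 23.7% of all genes tested. Gclc, the rate-limiting enzyme of glutathione synthesis, had 333, 348 and 851 CPM in the 4MU livers and 253, 221, 223 and 169 CPM in the CCl4 + 4MU livers. 4MU mouse 3 stood far above the other 4MU livers, and the change was -1.24 (standard error 0.28, adjusted p = 0.00206). This passed in 15 of 16 alternatives (adjusted p up to 0.0778) and not without 4MU mouse 3. Without that mouse the list gave 6 rises and 2 falls. Cbr3, a carbonyl reductase, rose by 1.71 (adjusted p = 0.0137), and by 1.15 (adjusted p = 0.084) without CCl4 + 4MU mouse 4. It also failed without 4MU mouse 2. For Gclc the log2 change was -0.65 without 4MU mouse 3.

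Of 29 bile acid genes 4 rose and 4 fell, 27.6% against 23.7% of all genes tested. Cyp7a1, the rate-limiting enzyme of bile acid synthesis (chromosome 4, 6265612 to 6275633), had 58.9, 48.2 and 45.1 CPM in the 4MU livers and 140.3, 159, 130.4 and 218 CPM in the CCl4 + 4MU livers. All CCl4 + 4MU livers were above all 4MU livers, mouse 4 the highest, and the change was 1.68 (standard error 0.51, adjusted p = 0.0179). It passed in 14 of 16 alternatives (adjusted p up to 0.0733) and not without 4MU mouse 2 or 3. Cyp7b1, of the alternative pathway, had 31.8, 28 and 28.6 CPM in the 4MU livers and 5.21, 3.59, 4.73 and 3.7 CPM in the CCl4 + 4MU livers and changed by -2.77 (standard error 0.26, adjusted p = 4.81e-08). Slc51b, which exports bile acids to the blood, rose by 1.91 (standard error 0.45, adjusted p = 0.00333). The bile acid importer Slc10a1 had 689, 574 and 571 CPM in the 4MU livers and 732, 644, 520.4 and 731 CPM in the CCl4 + 4MU livers, overlapping groups and a change of 0.10 (adjusted p = 0.783), and the exporter Abcb11 one of -0.34 (adjusted p = 0.209). The counts of rises fell to 1 without 4MU mouse 2 or 3 and to 2 without CCl4 + 4MU mouse 1, 2 or 3, and the falls numbered 7 without CCl4 + 4MU mouse 2.

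In lipid metabolism, 3 of 31 genes of fatty acid synthesis and storage rose and 3 fell, 19.4% against 23.7% of all genes tested. Lipoprotein lipase, Lpl, had 89.8, 64.5 and 141 CPM in the 4MU livers and 305, 532, 359 and 245 CPM in the CCl4 + 4MU livers and rose by 1.87 (standard error 0.46, adjusted p = 0.0044). Elovl3, which elongates fatty acids, had a ratio of summed counts of 0.0379 (95% interval 0.012 to 0.0918). The list gave 1 rise without 4MU mouse 2 or 3 or CCl4 + 4MU mouse 4, and 1 fall without 4MU mouse 3. Among 29 PPAR-alpha and fatty acid oxidation genes 3 rose and 5 fell, 27.6% against 23.7% of all genes tested. The falls numbered 3 without 4MU mouse 3. Ucp2, a mitochondrial carrier, had 12.7, 21.5 and 12.9 CPM in the 4MU livers and 60, 50.6, 66.4 and 92.8 CPM in the CCl4 + 4MU livers and rose by 2.1 (standard error 0.29, adjusted p = 1.09e-05). Cpt1a, which admits fatty acids to mitochondria, rose by 0.92 (adjusted p = 0.0315). This passed in 12 of 16 alternatives (adjusted p up to 0.127) and not without 4MU mouse 2 or 3 or CCl4 + 4MU mouse 1 or 2. The thioesterase Acot3 fell from 77.1, 52.3 and 55.7 to 25.8, 6.23, 8.72 and 16.4 CPM, at -2.11 (standard error 0.42, adjusted p = 0.000672). Of 25 cholesterol genes, 0 changed (edgeR; 2 at an unadjusted p under 0.05, 1 with DESeq2, 2 with limma-voom). Among them Sqle, squalene epoxidase, had 53.9, 58 and 12.5 CPM in the 4MU livers and 67.8, 24.3, 69 and 161 CPM in the CCl4 + 4MU livers.

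Most plasma protein genes did not pass. Of 38, 3 rose and 2 fell, 13.2% against 23.7% of all genes. Albumin, Alb, had 101067, 125171 and 127641 CPM in the 4MU livers and 124066, 146254, 138540 and 149049 CPM in the CCl4 + 4MU livers, overlapping groups and a change of 0.24 (adjusted p = 0.461). Transferrin, Trf, had 23512, 23762 and 22940.4 CPM in the 4MU livers and 36190.2, 40132, 36237 and 34462 CPM in the CCl4 + 4MU livers and rose by 0.65 (standard error 0.19, adjusted p = 0.0129). This passed in 14 of 16 alternatives (adjusted p up to 0.133), not with the low-count filter off, nor without 4MU mouse 3. Apoa2 had 5663, 8249.7 and 8876 CPM in the 4MU livers and 4040.1, 4006, 3665 and 5402 CPM in the CCl4 + 4MU livers and fell, at -0.83 (adjusted p = 0.0431). This passed in 9 of 16 alternatives (adjusted p up to 0.165), not with the replicate block, nor without 4MU mouse 2 or 3 or CCl4 + 4MU mouse 1, 2 or 3 or CCl4 + siHAS2-LNP mouse 4. Apoa4 had 292, 198 and 130.0 CPM in the 4MU livers and 589, 772, 478 and 498 CPM in the CCl4 + 4MU livers and rose by 1.5 (standard error 0.37, adjusted p = 0.0045). Of 20 acute-phase genes 4 rose and 2 fell, 30.0% against 23.7% of all genes. The falls numbered 4 without CCl4 + 4MU mouse 2. Lcn2, a siderophore-binding protein, had 171, 123 and 119 CPM in the 4MU livers and 395, 623, 461 and 773 CPM in the CCl4 + 4MU livers and rose by 2.03 (standard error 0.50, adjusted p = 0.00424), and Saa3 rose by 2.45 (standard error 0.53, adjusted p = 0.0015). The 2 falls were hepcidin genes: Hamp, the hormone that blocks iron export, had 460.3, 900.4 and 917 CPM in the 4MU livers and 129, 172, 166 and 100.1 CPM in the CCl4 + 4MU livers and Hamp2 377, 359 and 442 CPM in the 4MU livers and 69.2, 77.9, 70.8 and 18.7 CPM in the CCl4 + 4MU livers, changes of -2.42 (standard error 0.61, adjusted p = 0.00564) and -2.73 (standard error 0.66, adjusted p = 0.00385). The iron list, which shares the hepcidin genes, gave 1 rise and 4 falls among 16, or 31.2%.

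Of 21 hepatocyte transcription factors 0 rose and 3 fell (edgeR; 4 at an unadjusted p under 0.05, 3 with DESeq2, 5 with limma-voom), the deepest of them Onecut2, from 94.8, 102 and 116 to 54.6, 48.7, 41.8 and 48.1 CPM, at -1.11 (standard error 0.26, adjusted p = 0.00262). Leaving out 4MU mouse 1 or 2 or CCl4 + 4MU mouse 1, 2 or 3 brought the falls to 1. The growth hormone axis gave 1 rise and 10 falls among 23, 7 of the falls in Mup genes. Ghr, the growth hormone receptor, had 381, 513 and 388 CPM in the 4MU livers and 203, 226, 206 and 128 CPM in the CCl4 + 4MU livers and changed by -1.16 (standard error 0.25, adjusted p = 0.00139). Igf1, its main effector, changed by -0.60 (adjusted p = 0.0264). This passed in 12 of 16 alternatives (adjusted p up to 0.19), not with the low-count filter off, nor without 4MU mouse 2 or CCl4 + 4MU mouse 1 or 4. Socs2, which dampens the signal, had 11.8, 46.6 and 24.8 CPM in the 4MU livers and 10.5, 7.73, 4.88 and 9.86 CPM in the CCl4 + 4MU livers and changed by -1.76 (standard error 0.42, adjusted p = 0.0037). This passed in 15 of 16 alternatives (adjusted p up to 0.0669) and not without 4MU mouse 2. The falls dropped to 2 without 4MU mouse 2 and to 8 without CCl4 + 4MU mouse 4. For Socs2 the log2 change was -1.15 without 4MU mouse 2.

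Genes of the fetal and regenerating liver rose. Of 17, 13 rose and 0 fell (14 at an unadjusted p under 0.05, 14 with DESeq2, 12 with limma-voom), with a median of 2.54, and 12 with a median of 1.2 without mouse 4. Alpha-fetoprotein, Afp, had 5.74, 5.78 and 2.48 CPM in the 4MU livers and 78.7, 112, 79 and 94.4 CPM in the CCl4 + 4MU livers and rose by 4.28 (standard error 0.47, adjusted p = 4.39e-07). The imprinted RNA H19 had 4.97, 1.6 and 1.57 CPM in the 4MU livers and 90.4, 215, 79.3 and 176 CPM in the CCl4 + 4MU livers, the highest in mouse 2, and rose by 5.70 (standard error 0.85, adjusted p = 2.77e-05). Gpc3, a fetal proteoglycan, had 2.31, 1.95 and 1.42 CPM in the 4MU livers and 12.8, 18.9, 22 and 34.7 CPM in the CCl4 + 4MU livers and rose by 3.54 (standard error 0.36, adjusted p = 1.35e-07). The groups did not overlap in any of the 3. Cd24a had 1.49, 1.02 and 1.87 CPM in the 4MU livers and 2.02, 1.2, 2.37 and 28 CPM in the CCl4 + 4MU livers, where only mouse 4 was high, and its change of 2.54 (adjusted p = 0.0119) became 0.37 (adjusted p = 0.492) without it. It passed in 11 of 16 alternatives (adjusted p up to 0.492), not with limma-voom, the replicate block or the compared groups alone, nor without 4MU mouse 2 or CCl4 + 4MU mouse 4. The duct list behaved alike: 12 of 17 rose with mouse 4, 3 without it and 7 without 4MU mouse 2, and 0 fell (13 at an unadjusted p under 0.05, 8 with DESeq2, 4 with limma-voom). Krt19 had 1.02, 2.3 and 2.13 CPM in the 4MU livers and 0.645, 1.15, 2.51 and 92.6 CPM in the CCl4 + 4MU livers, and its change of 3.73 (adjusted p = 0.0151) became -0.33 without mouse 4. It passed in 9 of 16 alternatives (adjusted p up to 0.872), not with DESeq2, limma-voom, the replicate block or the compared groups alone, nor without 4MU mouse 1 or 3 or CCl4 + 4MU mouse 4. Epcam changed by 2.71 (adjusted p = 0.00863), and by 0.64 (adjusted p = 0.274) without it. This passed in 12 of 16 alternatives (adjusted p up to 0.274), not with limma-voom, the replicate block or the compared groups alone, nor without CCl4 + 4MU mouse 4. Spp1, osteopontin, was high in all 4, with 23.3, 28.8 and 44.8 CPM in the 4MU livers and 103, 132, 195 and 147 CPM in the CCl4 + 4MU livers, and rose by 2.16 (standard error 0.35, adjusted p = 7.51e-05). For H19 the log2 change was 6.47 without 4MU mouse 1.

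Of 27 annexins, S100 proteins and cytoskeletal genes 11 rose and 1 fell. Anxa5, which binds exposed phosphatidylserine, had 48.6, 49.8 and 54 CPM in the 4MU livers and 136, 138, 163 and 176 CPM in the CCl4 + 4MU livers and rose by 1.59 (standard error 0.15, adjusted p = 3.9e-08). Anxa2 had 8.5, 14.2 and 16.3 CPM in the 4MU livers and 62.6, 74.2, 106 and 76.9 CPM in the CCl4 + 4MU livers and rose by 2.62 (standard error 0.28, adjusted p = 3e-07), and S100a11 rose by 2.96 (standard error 0.36, adjusted p = 1.76e-06). Tubb6 had 6.76, 6.29 and 5.42 CPM in the 4MU livers and 21.4, 21.7, 49.6 and 20.3 CPM in the CCl4 + 4MU livers and rose by 2.2 (adjusted p = 1.88e-05), while Tubb2a fell by 1.37 (adjusted p = 0.0141). This passed in 15 of 16 alternatives (adjusted p up to 0.0635) and not without 4MU mouse 2. Sinusoidal endothelium and zonation genes gave 2 rises and 2 falls among 27. Rspo3, the Wnt amplifier released by central vein endothelium, had 4.76, 8.24 and 8.1 CPM in the 4MU livers and 3.36, 2.84, 3.51 and 3.88 CPM in the CCl4 + 4MU livers and changed by -1.05 (standard error 0.29, adjusted p = 0.0109). This passed in 14 of 16 alternatives (adjusted p up to 0.0552) and not without 4MU mouse 2 or 3. Dkk3 rose by 1.93 (adjusted p = 0.00076).

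Endoplasmic reticulum and ATF4 stress genes gave 5 rises and 3 falls among 32, or 3 and 1 without 4MU mouse 1. With all mice the share called was close to the 23.7% of all genes tested. The serine synthesis enzyme Psat1 had 0.973, 0.312 and 0.456 CPM in the 4MU livers and 9.21, 12.1, 11.1 and 15.7 CPM in the CCl4 + 4MU livers and rose by 4.4 (standard error 0.51, adjusted p = 1.01e-06), and Phgdh, of the same pathway, rose by 4.18. Asns, asparagine synthetase, rose by 3.05 (standard error 0.70, adjusted p = 0.00271), with mouse 4 highest at 35.7 CPM. The chaperone Hspa5 had 854, 923 and 612 CPM in the 4MU livers and 606, 728, 807 and 628 CPM in the CCl4 + 4MU livers and a change of -0.20 (adjusted p = 0.569). Vldlr, a lipoprotein receptor, fell from 41.4, 9.37 and 13.9 to 2.5, 1.6, 1.7 and 2.7 CPM, at -3.33 (standard error 0.36, adjusted p = 3e-07). Of 22 immediate early genes 3 rose and 3 fell, 27.3% against 23.7% of all genes tested. Without 4MU mouse 1 or CCl4 + 4MU mouse 3 the rises numbered 1, and without 4MU mouse 2 or 3 or CCl4 + 4MU mouse 1, 2 or 3 the falls numbered 1. Dusp6, which shuts down ERK, had 60.3, 67 and 84.5 CPM in the 4MU livers and 21.6, 19.1, 27.6 and 18.1 CPM in the CCl4 + 4MU livers and changed by -1.71 (standard error 0.26, adjusted p = 3.64e-05). Egr1 had 1.02, 50.5 and 64.2 CPM in the 4MU livers and 16.1, 9.08, 8.65 and 8.79 CPM in the CCl4 + 4MU livers, where 4MU mouse 1 lay under and 4MU mice 2 and 3 over all CCl4 + 4MU livers, a change of -1.86 (adjusted p = 0.124). Egr2 rose by 1.91 (adjusted p = 0.0332). This passed in 10 of 16 alternatives (adjusted p up to 0.152), not with library totals, nor without 4MU mouse 1, 2 or 3 or CCl4 + 4MU mouse 3 or 4. Of 18 clock genes 1 rose, Bhlhe41 at 2.15 (adjusted p = 0.00722), and 1 fell, Rora at -1.06 (adjusted p = 0.00132). Dbp, the output factor of the clock, had 76.5, 1.17 and 2.18 CPM in the 4MU livers and 69.9, 14.4, 32.6 and 67.6 CPM in the CCl4 + 4MU livers, so that 4MU mouse 1 stood apart from its group, and without it 7 clock genes rose and 4 fell. Erythroid and platelet genes gave 0 calls of 10 (0 at an unadjusted p under 0.05, 0 with DESeq2, 0 with limma-voom). The single tested pancreatic acinar gene did not pass by any of these, and the acinar markers Cpa1 and Prss2 had 0 counts in all 7 livers. For Asns and Vldlr the log2 changes were 4.73 and -2.44 without 4MU mouse 1. For Asns the log2 change was 2.22 without CCl4 + 4MU mouse 4.

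**Figure D3:**
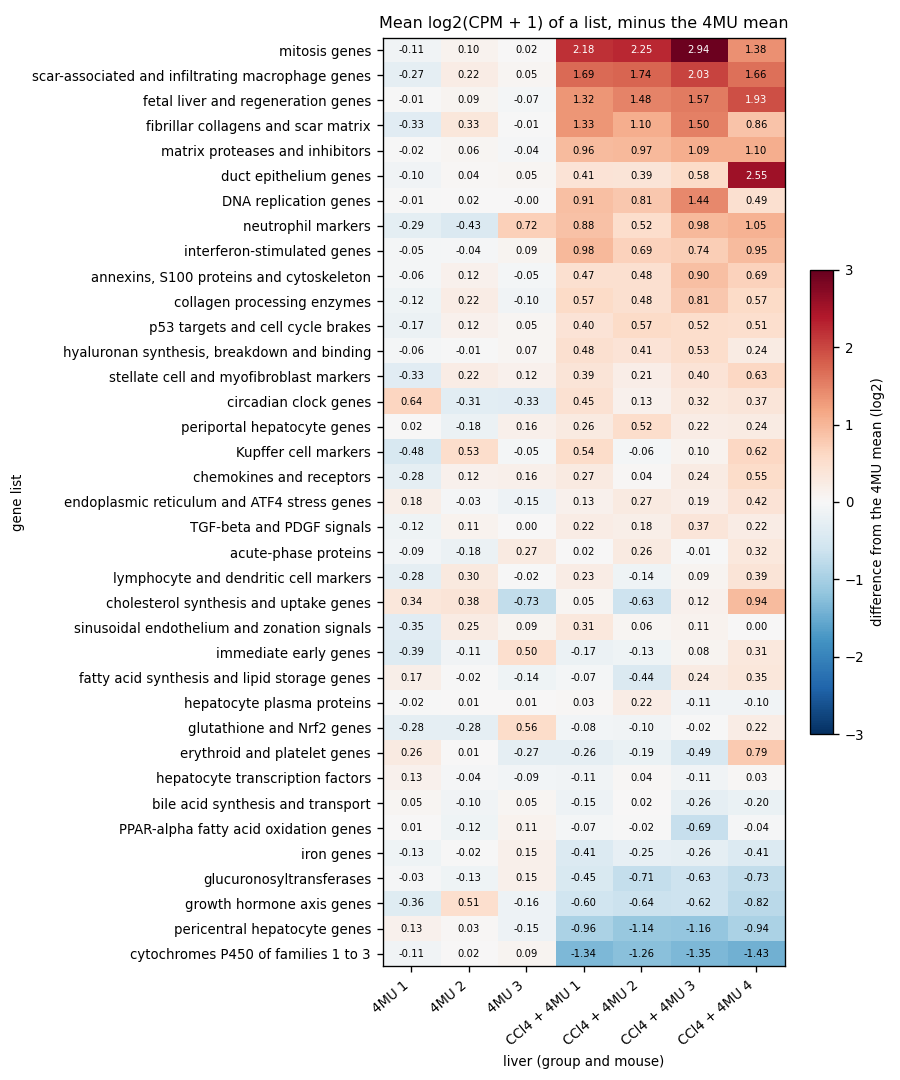
Each cell gives, for 1 liver (column) and 1 list (row), the mean log2(CPM + 1) of the list's tested genes minus its mean over the 3 4MU livers, red above and blue below 0, with rows ordered by the mean of the CCl4 + 4MU livers. Mitosis genes are at 2.18, 2.25, 2.94 and 1.38 in CCl4 + 4MU mice 1 to 4, cytochromes P450 at -1.34, -1.26, -1.35 and -1.43, and the duct list is at 2.55 in mouse 4 against 0.39 to 0.58 in the other 3.

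The CCl4 effect with 4MU was then set against the CCl4 effect in mice without treatment, as the difference of the 2 log2 fold changes in the same fit. Of the 14114 genes 800 (5.67%) differed, 384 with a more positive change with 4MU and 416 with a more negative one, and 3603 did at an unadjusted p under 0.05. The untreated arm holds 2 CCl4 mice, and the count rests on single livers. Without CCl4 mouse 2 it was 20, of which 10 were among the 800, and without CCl4 mouse 1 it was 1195. It was 237 and 271 without 4MU mouse 2 or 3, 244, 520 and 246 without CCl4 + 4MU mouse 1, 2 or 4, and 351 and 441 without control mouse 1 or 2. With library totals in place of TMM the median difference of all genes moved from 0.046 to -0.376 and 2182 genes differed, 179 above and 2003 below. The split of the calls thus turned with the scaling. The differences given here with a standard error that passed the threshold kept their sign under every alternative fitted. The sign of those that did not pass was not checked.

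Part of the replication list rose less with 4MU than in untreated mice. In the untreated arm 46 of 47 rose, with a median of 3.07 against 1.03, and 13 of 47 differed, all below. In the siLuc-LNP and siHAS2-LNP arms the medians were 1.53 and 0.64 and 34 and 9 of 47 rose. Against the mean of the other 3 arms 0 of 47 differed (edgeR; 10 at an unadjusted p under 0.05, 0 with DESeq2, 0 with limma-voom). Pcna had 24.4, 29.2, 29.7 and 27.3 CPM in control and 91.4 and 193 CPM in CCl4 livers, so that both untreated CCl4 livers lay above all CCl4 + 4MU livers. The difference was -1.89 (standard error 0.40, adjusted p = 0.0127). This passed in 21 of 22 alternatives (adjusted p up to 0.162) and not without CCl4 mouse 2. Its change was 1.30 in the siLuc-LNP, 0.40 in the siHAS2-LNP and 0.47 in the 4MU arm, and the difference from the other 3 arms, -0.88 (standard error 0.31, adjusted p = 0.123), did not pass. Rpa2 had 8.24, 10.2, 9.31 and 8.59 CPM in control and 39.1 and 48.8 CPM in CCl4 livers, a difference of -2.01 (standard error 0.32, adjusted p = 0.00593) that passed in all 22 alternatives. Mcm4, Mcm7, Cdc45, Pola1, Prim1 and Prim2 differed by -2.33, -2.13, -2.89, -2.26, -1.97 and -2.01. Among mitosis genes the median was 4.65 with 4MU and 5.22, 3.91 and 2.59 in the untreated, siLuc-LNP and siHAS2-LNP arms. From the mean of the other 3 arms 0 of 54 differed (edgeR; 14 at an unadjusted p under 0.05, 1 with DESeq2, 0 with limma-voom). From the untreated arm 4 of 54 differed, Aurka, Nusap1, Spc25 and Smc2, by -1.77 to -2.67, beside 5.67% of all genes tested. Histone chaperones of the same phase were also below: Nasp by -1.73, in 21 of 22 alternatives (adjusted p up to 0.0742) and not without CCl4 mouse 2, and Rbbp4 by -1.12. Hars1, a tRNA synthetase, had 39.5, 39.9, 37.8 and 36.8 CPM in control, 74.2 and 77.3 CPM in CCl4 and 33.1, 39.3, 40.5 and 35.4 CPM in CCl4 + 4MU livers, a difference of -1.17 (standard error 0.17, adjusted p = 0.00317), past the threshold in all 22 alternatives. In all, 9 chaperones and enzymes of the endoplasmic reticulum and ATF4 list, Hspa5 among them at -1.24 (standard error 0.35, adjusted p = 0.0392), were below and 1, Chac1, above. For Hspa5 this passed in 12 of 22 alternatives (adjusted p up to 0.146) and not without 4MU mouse 1 or 2 or CCl4 mouse 1 or 2 or CCl4 + 4MU mouse 1, 2 or 4 or control mouse 1, 2 or 4. The median of this list was 0.09 with 4MU and 0.52, 0.3 and 0.02 in the untreated, siLuc-LNP and siHAS2-LNP arms. In those 3 arms 16, 8 and 4 of 32 rose. From the mean of the other 3 arms 2 of 32 differed, below it (edgeR; 19 at an unadjusted p under 0.05, 6 with DESeq2, 6 with limma-voom).

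**Figure D4:**
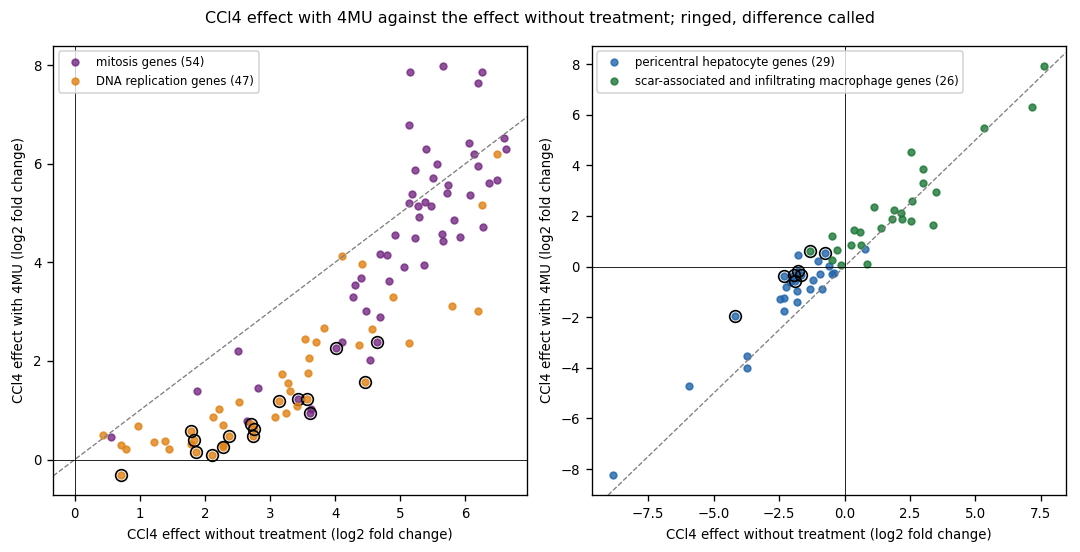
Each point is 1 gene, with the log2 fold change of CCl4 against control on the horizontal axis and that of CCl4 + 4MU against 4MU on the vertical axis, the dashed line marking equal change and black rings the genes whose difference was called. Most replication genes (orange, left panel) lie below the line, 13 of 47 ringed, mitosis genes (purple) lie on both sides of it, 4 of 54 ringed, most pericentral genes (blue, right panel) lie above it, 7 of 29 ringed, and 1 of 26 macrophage genes (green) is ringed.

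Part of the pericentral and plasma protein lists fell less with 4MU than in untreated mice. In the untreated arm 24 of 29 pericentral genes fell, with a median of -1.81 against -0.57, and 7 differed, all above. In the siLuc-LNP and siHAS2-LNP arms the medians were -1.12 and -0.92 and 20 and 15 fell, and against the mean of the other 3 arms 0 of 29 differed (edgeR; 13 at an unadjusted p under 0.05, 3 with DESeq2, 10 with limma-voom). Cyp2e1 had a change of -4.17 in the untreated arm and -1.94 with 4MU, a difference of 2.24 (standard error 0.56, adjusted p = 0.0287). This passed in 18 of 22 alternatives (adjusted p up to 0.198) and not without 4MU mouse 2 or 3 or CCl4 mouse 2 or CCl4 + 4MU mouse 1. Cyp2e1 changed by -3.29 in the siLuc-LNP and -1.91 in the siHAS2-LNP arm, and the difference from the other 3 arms, 1.19 (standard error 0.42, adjusted p = 0.122), did not pass. Glul, by contrast, changed by -3.73 and -4.00. Among plasma proteins 18 of 38 fell in the untreated arm and 2 with 4MU, with 7 differences above and 1, Apoa4, below. In the siLuc-LNP and siHAS2-LNP arms 8 and 2 fell, and 2 differed from the mean of the other 3 arms, 1 in each direction. That of Alb was 1.14 (standard error 0.34, adjusted p = 0.0495). This passed in 4 of 22 alternatives (adjusted p up to 0.297), not with DESeq2's size factors, the low-count filter off, edgeR's own filter, the replicate block or the compared groups alone, nor without 4MU mouse 1, 2 or 3 or CCl4 mouse 2 or CCl4 + 4MU mouse 1, 2, 3 or 4 or CCl4 + siHAS2-LNP mouse 4 or control mouse 1, 2, 3 or 4. Acute-phase Orm1 differed by 1.78 (standard error 0.47, adjusted p = 0.0331). This passed in 14 of 22 alternatives (adjusted p up to 0.198), not with the replicate block, nor without 4MU mouse 1, 2 or 3 or CCl4 mouse 2 or CCl4 + 4MU mouse 1 or 4 or control mouse 2. Cyp7a1 moved in opposite directions in the untreated and the 4MU arm. It had 387, 106, 86.6 and 267 CPM in control and 35.6 and 11.3 CPM in CCl4 livers, a change of -3.18, and the difference was 4.86 (standard error 0.82, adjusted p = 0.0109). The 3 4MU livers, at 58.9, 48.2 and 45.1 CPM, lay under all 4 control livers. Slc10a1 had 746, 523, 736 and 791 CPM in control and 184 and 225 CPM in CCl4 livers, so that its level in CCl4 + 4MU livers stayed within the control range in 3 of 4 and just under it in mouse 3, and the difference was 1.88 (standard error 0.36, adjusted p = 0.0115). The differences of Cyp7a1 and Slc10a1 from the untreated arm passed in 21 of 22 alternatives, failing without CCl4 mouse 2. Those from the mean of the other 3 arms were smaller, at 2.59 and 1.23. They passed in 10 of 15 alternatives each (adjusted p up to 0.0918 and 0.0827). Both failed without 4MU mouse 2 or 3 or CCl4 + 4MU mouse 1 or 4.

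Against the mean CCl4 effect of the other 3 arms, 204 genes (1.45%) differed, 144 above and 60 below, and 3042 did at an unadjusted p under 0.05. This contrast and the preceding one share the 4MU arm and the untreated arm, and 126 genes passed in both in the same direction, 15.8% of the 800 and 61.8% of the 204. The count was 19 without 4MU mouse 3, 74 without 4MU mouse 1, 64 without CCl4 + 4MU mouse 1 and 38 without CCl4 + 4MU mouse 4. No fit of this contrast left out a control or untreated CCl4 mouse, so how far it rests on CCl4 mouse 2 was not tested. With library totals the median difference moved from 0.023 to -0.228 and 125 genes differed, 34 above and 91 below.

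Some macrophage genes rose more with 4MU than in the other arms. Of 26 in the scar-associated list 5 were above, and of 16 Kupffer cell markers 4, the C1q chains C1qa, C1qb and C1qc and Csf1r. The Fc receptor Fcgr3 had 3.84, 7.07 and 4.46 CPM in the 4MU livers and 21.1, 19.6, 20.6 and 19.6 CPM in the CCl4 + 4MU livers. Elsewhere CCl4 livers held 3.65 and 9.49 CPM (untreated), 17.6, 13.4, 13.3 and 11.9 CPM (siLuc-LNP) and 9.43, 10.3, 7.83 and 6.81 CPM (siHAS2-LNP), so that all 4 CCl4 + 4MU livers were the highest of the 14. The difference was 1.94 (standard error 0.32, adjusted p = 0.00592), past the threshold in 15 of 15 alternatives. Trem2 rose by 5.46 with 4MU and by 5.32, 2.49 and 2.80 in the untreated, siLuc-LNP and siHAS2-LNP arms, a difference of 1.92 (standard error 0.46, adjusted p = 0.0366) that passed in 7 of 15 alternatives (adjusted p up to 0.129), not with limma-voom or library totals, nor without 4MU mouse 1, 2 or 3 or CCl4 + 4MU mouse 1, 3 or 4. Over the alternatives Fcgr3 rose by 1.81 to 2.28 within the 4MU arm, close to its difference from the other arms. The difference depends on the livers without CCl4 as well, and for C1qc and Rac2 the 4MU baseline was low. C1qc had 25.5, 46.3 and 38.9 CPM in 4MU against 72.1, 52.1, 48.1 and 51.6 CPM in control, 62.5, 56.6 and 92.6 CPM in siLuc-LNP and 74, 66.4 and 82.8 CPM in siHAS2-LNP livers, and differed by 1.63 (standard error 0.27, adjusted p = 0.00592). Rac2, the GTPase of blood cells, had 5.48, 7.3 and 6.43 CPM in 4MU, below every liver of the other 3 groups without CCl4, and 13.3, 10.2, 12.9 and 17.8 CPM with CCl4, a difference of 1.49 (standard error 0.22, adjusted p = 0.00592). Laptm5 and Pld4, lysosomal proteins of leukocytes, differed by 1.21 (standard error 0.19, adjusted p = 0.00592) and 1.5 (standard error 0.24, adjusted p = 0.00592).

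The class II genes that present antigen to helper T cells also differed, 5 of the 6 members of the lymphocyte and dendritic cell list that were above. They, like Csf1r, are named after their values were seen. H2-Ab1 had 8.61, 33.4 and 13.9 CPM in the 4MU livers and 40.6, 19.5, 37.7 and 80.3 CPM in the CCl4 + 4MU livers, overlapping groups with 4MU mouse 2 and CCl4 + 4MU mouse 4 highest in each, and changed by 1.25 (standard error 0.39, adjusted p = 0.0228). This passed in 11 of 16 alternatives (adjusted p up to 0.134), not with limma-voom or the compared groups alone, nor without 4MU mouse 1 or 3 or CCl4 + 4MU mouse 4. The same change was -1.54 in the untreated, -0.96 in the siLuc-LNP and -1.76 in the siHAS2-LNP arm, and the difference was 2.67 (standard error 0.47, adjusted p = 0.00643). The invariant chain Cd74 had 31.3, 115 and 49.1 CPM in the 4MU livers and 135, 57.3, 110.2 and 212 CPM in the CCl4 + 4MU livers, a difference of 2.26 (standard error 0.45, adjusted p = 0.0179) for a change of 0.98 (adjusted p = 0.0649) within the arm. H2-Eb1, H2-Aa and Ciita, the factor that switches these genes on, differed by 2.21, 2.03 and 1.6 and did not pass within the arm. The differences passed in 12 of 15 alternatives for Cd74, 10 for H2-Eb1, 12 for H2-Aa and 7 for Ciita. Without CCl4 + 4MU mouse 4 the difference passed for H2-Ab1 (2.22, adjusted p = 0.0232) and not for the other 4, and without 4MU mouse 3 for none of the 5. Irf7, with 3 interferon-stimulated genes above in all, differed by 1.27 (standard error 0.30, adjusted p = 0.0342). This passed in 8 of 15 alternatives (adjusted p up to 0.108), not with library totals or the replicate block, nor without 4MU mouse 1, 2 or 3 or CCl4 + 4MU mouse 1 or 4. For H2-Ab1 the log2 change was 1.99 without 4MU mouse 2.

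**Figure D5:**
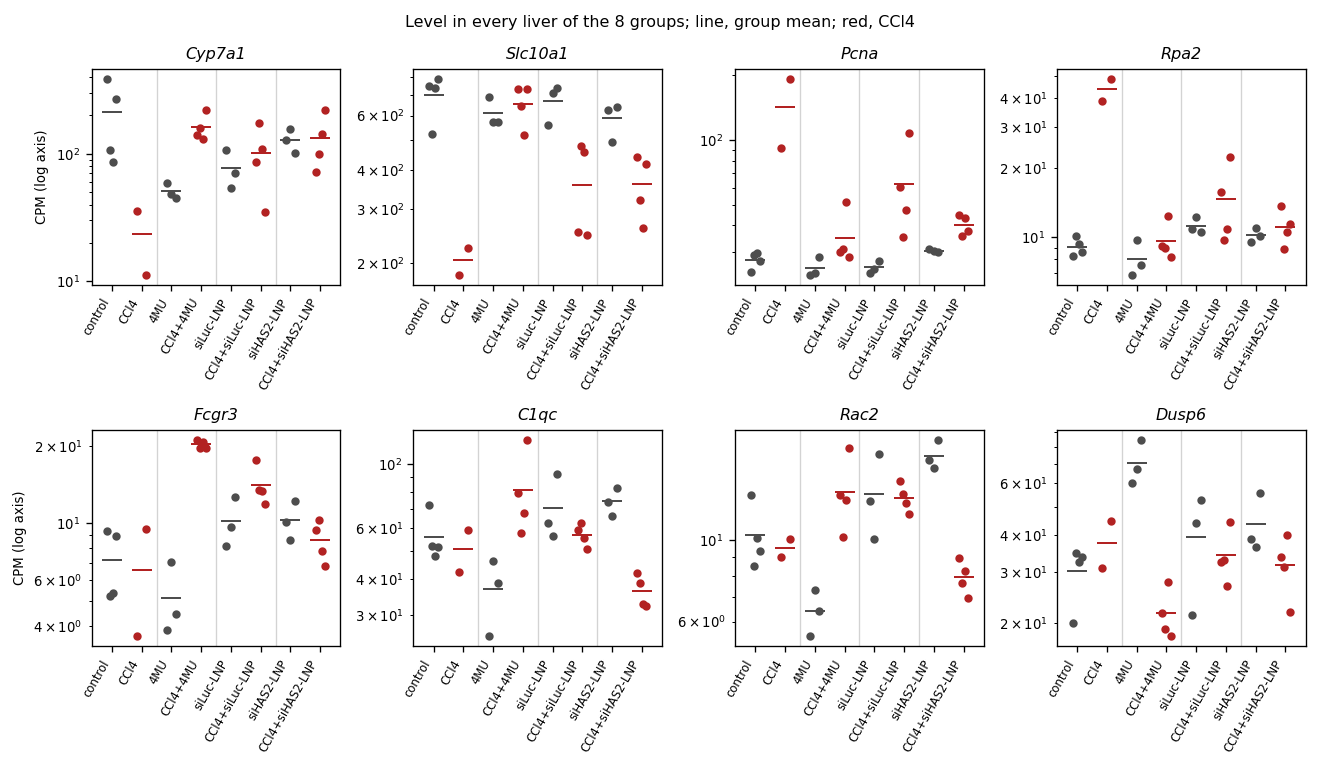
Each panel shows the CPM of 1 gene on a log axis in every liver of the 8 groups, CCl4 groups in red and the others in grey, with a line at each group mean. Cyp7a1 and Slc10a1 are low in untreated CCl4 livers and not in CCl4 + 4MU livers, Pcna and Rpa2 are high in untreated CCl4 livers, Fcgr3 is highest in CCl4 + 4MU livers, and C1qc and Rac2 start from a low and Dusp6 from a high 4MU level.

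Below the mean of the other arms lay genes with several roles. Dusp6 had 60.3, 67 and 84.5 CPM in 4MU livers, above every liver of the control, siLuc-LNP and siHAS2-LNP groups, and 21.6, 19.1, 27.6 and 18.1 CPM in CCl4 + 4MU livers, a difference of -1.6 (standard error 0.30, adjusted p = 0.0105). This passed in 14 of 15 alternatives (adjusted p up to 0.0607) and not without 4MU mouse 3. Eed, a subunit of the Polycomb complex, and Kmt2d, a histone methyltransferase, differed by -1.10 (standard error 0.23, adjusted p = 0.0198) and -0.83 (standard error 0.17, adjusted p = 0.0199). Eed passed in 13 of 15 alternatives (adjusted p up to 0.0752) and not without 4MU mouse 3 or CCl4 + 4MU mouse 4, and Kmt2d in 12 of 15 alternatives (adjusted p up to 0.0713) and not without 4MU mouse 1 or CCl4 + 4MU mouse 1 or 4. Map4k4, a kinase of the stress pathway, rose by 0.93 with 4MU and by 2.08, 1.78 and 1.85 elsewhere, a difference of -0.98 (standard error 0.20, adjusted p = 0.0187). This passed in 13 of 15 alternatives (adjusted p up to 0.0871) and not without 4MU mouse 3 or CCl4 + 4MU mouse 4. The transferrin receptor Tfrc had 47.9, 25.1 and 96.4 CPM in the 4MU livers and 33.8, 46.6, 60.5 and 32.6 CPM in the CCl4 + 4MU livers, overlapping groups, against 15.6, 23.2, 21.9 and 28.3 CPM in control and 119 and 119.9 CPM in CCl4 livers, a difference of -1.92 (standard error 0.50, adjusted p = 0.0491) from the other arms. This passed in 8 of 15 alternatives (adjusted p up to 0.219), not with the replicate block, nor without 4MU mouse 1 or 3 or CCl4 + 4MU mouse 1, 2 or 4 or CCl4 + siHAS2-LNP mouse 4. Inhbb, the activin B chain, had 0.256, 0.195 and 2.13 CPM in the 4MU livers and 0.688, 0.648, 0.739 and 0.747 CPM in the CCl4 + 4MU livers and a difference of -3.34 (standard error 0.83, adjusted p = 0.0416). It was named after its values were seen and passed in 9 of 15 alternatives (adjusted p up to 0.412), not with limma-voom, nor without 4MU mouse 3 or CCl4 + 4MU mouse 1, 2, 3 or 4. Above the other arms lay Arrdc2, at 1.66 (standard error 0.28, adjusted p = 0.00592), an arrestin-domain protein with 11, 9.96 and 8.05 CPM in the 4MU livers and 11.4, 14.4, 10.1 and 17.4 CPM in the CCl4 + 4MU livers that changed by -1.88, -1.23 and -0.47 in the untreated, siLuc-LNP and siHAS2-LNP arms, and Tcn2, which carries vitamin B12, at 0.87 (standard error 0.22, adjusted p = 0.0441). Tcn2 passed in 6 of 15 alternatives (adjusted p up to 0.101), not with library totals or the replicate block, nor without 4MU mouse 1, 2 or 3 or CCl4 + 4MU mouse 1, 2, 3 or 4.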

How the data were processed

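RNA of 27 mouse livers was sequenced as paired ends (NEBNext Ultra II Directional, NextSeq500). The authors trimmed reads with Trimmomatic 0.39, aligned them to GRCm39 with HISAT2 and deposited raw counts per Ensembl 105 gene from featureCounts without multi-mapping reads. The HISAT2 version and the strand setting are not given in the sources used here, so overlapping and antisense genes cannot be told apart. From the deposited counts, 1 model over all 27 libraries was fitted with edgeR 4.0.16 (R 4.3.3), with TMM scaling and the quasi-likelihood test, two-sided, for genes averaging 10 counts or more. P-values were Benjamini-Hochberg adjusted over 14114 genes, with a threshold of 0.05. Fold changes are log2, and the standard error is the fold change divided by the square root of F. The script was tested on simulated data. Alternatives were DESeq2 1.42.0, limma-voom (3.58.1), other scalings and filters, a replicate block, a fit of the compared groups alone and leaving out each mouse. Labels do not pair mice: same-numbered livers correlated at 0.035, -0.11 and -0.105. The members and gene lists were chosen with earlier results of these data known. Named genes were the anchors marked in each list, each list's largest rise and fall among genes called without overlap, the 10 largest rises and falls over all genes so called, and the 8 genes of each direction with the smallest p for each difference between arms, predicted genes left out of the latter groups. A few of these genes are not reported here. Further list members are named with their values to fill out a count. The genes H2-Aa, H2-Ab1, H2-Eb1, Cd74, Ciita, Csf1r and Inhbb were added after their values were seen.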

Additional observations from a re-analysis of the deposited data

Results flagged for a closer look

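Within the 4 CCl4 + 4MU livers, 1 value lay further from the others than Dixon's 95% limit allows for several results, which chance alone gives in about 1 of 20 groups. Over all tested genes it happened for 867 of 14114 (6.14%), with mouse 4 the liver apart in 472 (54.4%). For list means of log2(CPM + 1) above the 4MU mean, the liver apart was mouse 2 for periportal genes (0.52), mouse 3 for PPAR-alpha genes (-0.69) and mouse 4 for duct genes (2.55). For single genes in mouse 4, Epcam stood apart at 19.6 CPM and Cd24a at 28 CPM on the high side, and Ugt2b1 at 108 CPM and Hamp2 at 18.7 CPM on the low side. In mouse 3, Pcna at 51.3 CPM and Tubb6 at 49.6 CPM were high. In mouse 2, Tgfb1 at 10.6 CPM and Cd68 at 21.7 CPM were low, and in mouse 1, Egr1 at 16.1 CPM was high. No explanation was tested.

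The following genes had a CCl4 effect with 4MU that differed from the one in untreated mice in edgeR's test of the difference, on the log2 scale. Each value is followed by the number of alternatives in which it passed. Above the untreated effect were Cyp7a1 (4.86, 21 of 22), H2-Ab1 (2.79, 21 of 22), Acot3 (2.42, 13 of 22), Arrdc2 (2.35, 21 of 22), Ciita (2.34, 20 of 22), H2-Eb1 (2.28, 10 of 22), Cyp2e1 (2.24, 18 of 22), Cd74 (2.18, 13 of 22), Fcgr3 (2.09, 22 of 22), Ugt1a6a (2.03, 17 of 22), Slc10a1 (1.88, 21 of 22), Orm1 (1.78, 14 of 22), Apoa2 (1.61, 10 of 22), Tcn2 (1.51, 21 of 22), Pld4 (1.43, 21 of 22), Csf1r (1.37, 12 of 22), Ahr (1.30, 21 of 22), C1qc (1.28, 10 of 22), Rac2 (1.19, 18 of 22) and Alb (1.14, 4 of 22). Below it were Inhbb (-4.53, 20 of 22), Tfrc (-2.81, 20 of 22), Ccl2 (-2.75, 9 of 22), Dusp6 (-2.03, 21 of 22), Rpa2 (-2.01, 22 of 22), Pcna (-1.89, 21 of 22), Apoa4 (-1.84, 11 of 22), Nasp (-1.73, 21 of 22), Eed (-1.42, 21 of 22), Anxa2 (-1.35, 12 of 22), Hspa5 (-1.24, 12 of 22), Hars1 (-1.17, 22 of 22), Map4k4 (-1.15, 20 of 22), Ugp2 (-1.12, 14 of 22), Rbbp4 (-1.12, 22 of 22) and Ccng1 (-1.06, 16 of 22). Against the mean effect of the other 3 arms, the genes above were H2-Ab1 (2.67, 14 of 15), Cyp7a1 (2.59, 10 of 15), Cd74 (2.26, 12 of 15), H2-Eb1 (2.21, 10 of 15), H2-Aa (2.03, 12 of 15), Fcgr3 (1.94, 15 of 15), Trem2 (1.92, 7 of 15), Arrdc2 (1.66, 15 of 15), C1qc (1.63, 15 of 15), Ciita (1.6, 7 of 15), Csf1r (1.54, 14 of 15), Pld4 (1.5, 15 of 15), Rac2 (1.49, 15 of 15), Irf7 (1.27, 8 of 15), Slc10a1 (1.23, 10 of 15), Laptm5 (1.21, 15 of 15) and Tcn2 (0.87, 6 of 15). Those below were Inhbb (-3.34, 9 of 15), Tfrc (-1.92, 8 of 15), Apoa4 (-1.62, 8 of 15), Dusp6 (-1.6, 14 of 15), Gclc (-1.31, 8 of 15), Eed (-1.10, 13 of 15), Map4k4 (-0.98, 13 of 15), Nasp (-0.93, 7 of 15), Kmt2d (-0.83, 12 of 15), Rbbp4 (-0.72, 13 of 15) and Hars1 (-0.59, 10 of 15). Both contrasts share the 4MU arm and the untreated arm, so they are not independent of each other.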

How the results depend on the processing

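The count of 3350 genes in CCl4 + 4MU against 4MU stayed within 1.5 times under DESeq2, limma-voom, other scalings and filters, the replicate block (2880) and the fit of the 2 groups alone. It moved to 1638 when a change of 1 or more on the log2 scale was required, and leaving out 1 mouse gave 2138 to 3320. Against the untreated arm, 800 genes became 1481 with DESeq2, 2182 with library totals, 1386 with no low-count filter and 1308 with the compared groups alone. Leaving out 1 mouse gave 20 to 1195, and the replicate block 561. Against the other 3 arms, 204 became 643 with DESeq2, 1179 with limma-voom, 125 with library totals, 933 with no low-count filter and 111 with the replicate block. Leaving out 1 mouse of the 4MU arm, or CCl4 + siHAS2-LNP mouse 4, gave 19 to 190. Control and untreated CCl4 mice were not left out for this contrast. The share of calls above 0 was 70.6% for this contrast, 58.3% with DESeq2, 54.3% with limma-voom, 81.1% with the block and 27.2% with library totals, and for the untreated arm 48.0% and, with library totals, 8.2%. Same-numbered mice did not deviate together, so the block carries no pairing. The changes within the arm turned sign in 7 cases, in Krt19, which was past the threshold, and in Ccl2, Tfrc and Inhbb, which were not. With limma-voom Krt19 was -0.18, Tfrc 0.024 and Inhbb 0.86. Leaving out 1 mouse at a time gave -1.01 to 0.28 for Ccl2, -0.33 to 4.13 for Krt19, -0.73 to 0.25 for Tfrc and -0.75 to 1.64 for Inhbb, the value of the opposite sign coming without CCl4 + 4MU mouse 4 for Krt19 and without 4MU mouse 3 for the others. Of the other values for single genes within the arm, 2502 kept direction and side of the threshold, 117 lost the call and 30 gained it. For differences from the untreated arm 612 kept it and 180 lost it, and for differences from the other 3 arms 315 kept it and the rest lost it. The causes were not tested. Precision is limited by 3 and 4 mice, by 2 in the untreated CCl4 group, and by few counts in the low genes.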
